A study of Mus musculus with 6 samples.

Results

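Aminoacyl-tRNA synthetases, the enzymes that load each tRNA with its amino acid, were followed in primary mouse hepatocytes depleted of retinol saturase (RetSat), an oxidoreductase that acts on retinol. The profiling asked which genes respond to the loss of RetSat. The family was taken as 36 listed genes, 20 for the cytosolic enzymes and 16 for the mitochondrial ones, whose symbols end in 2. A listed gene counted as measured when a probe set named that single symbol, and its brightest probe set was used. By this rule 34 genes were measured, 18 cytosolic and 16 mitochondrial, among 19938 genes on the array. The only probe set of Aars names Exosc6 as well, and Dars had no probe set with a single symbol, so these genes were not analysed here. Hepatocytes came from 1 male wild-type C57BL/6J mouse, aged 10 weeks according to the labels, and received either control siRNA (siControl) or siRNA against RetSat (siRetSat), 3 transfections each. All cells were seeded in medium with 25 mM glucose, transfected overnight by lipofection, and lysed 48 h after the next morning's medium change. Total RNA was hybridised to Affymetrix Mouse Gene 1.0 ST arrays, 1 array per transfection, and values are log2 intensities as deposited.

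A synthetase recognises 1 amino acid and the tRNAs that decode it, joins them with the energy of ATP, and in several cases removes wrongly joined amino acids. Cytosol and mitochondria each translate with their own tRNAs, so most amino acids have a cytosolic enzyme and a separate nuclear-encoded enzyme that is imported into mitochondria. Many cytosolic synthetase genes are known targets of ATF4, a transcription factor whose translation increases when kinases that sense amino acid shortage or other stress phosphorylate the initiation factor eIF2. Hepatocytes depend on these enzymes for the large output of plasma proteins by the liver.

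Retsat mRNA was the first check of the labels. Its siControl arrays had log2 values of 6.80, 7.04 and 7.01, and its siRetSat arrays 4.62, 4.83 and 4.81, which leaves 21.8% of the control signal. The groups did not overlap, and the log2 fold change was -2.20 (standard error 0.105, adjusted p = 0.000112 from limma). No second siRNA against RetSat is among the samples, and all cells came from 1 mouse, so p-values measure the spread between transfections, and effects of this siRNA on other transcripts cannot be told apart from the loss of RetSat. Both arrays numbered 1 stood apart from the others in each group, on a component that held 61.5% of the variance left within groups, so the main results below are also given without this pair. Hepatocyte identity was checked on 9 of 10 listed markers. None of the 9 was dim, meaning under a log2 value of 4.33, the 40th percentile of all genes. Albumin (Alb) had a log2 value of 12.9 to 13.1 in every array. Among these markers 0 rose and 3 fell at an adjusted p under 0.05 from limma, beside 1.91% of all genes higher and 1.66% lower. Averaged over the list, siControl arrays ranged from -0.0937 to 0.137 and siRetSat arrays from -0.274 to -0.21 on the log2 scale around the siControl mean. In bulk RNA, fewer cells of a type and less RNA per cell cannot be told apart.

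The siRetSat hepatocytes carried less mRNA for threonyl-tRNA synthetase (Tars) and seryl-tRNA synthetase (Sars) than siControl hepatocytes. These were the only members past an adjusted p of 0.05 from limma, 2 of 34, both cytosolic and both lower. Among all 19938 genes 1.66% were lower and 1.91% higher at this threshold, and 0 members were higher. At the cutoffs of the study, which pair an unadjusted p under 0.05 with a log2 change of at least 0.32 in size, 6 members were lower and 0 higher, beside 4.58% of all genes lower and 4.47% higher. Here and below the p at these cutoffs came from limma, whereas the study used a two-tailed t-test. With the methods' t-test 6 members were lower and 0 higher. In 14 of 34 members all siRetSat arrays lay below all siControl arrays, beside 10.1% of all genes, and in 2 of 34 they lay above, beside 9.33%. Among the 11960 genes that were not dim, 327 were lower and 363 higher at the adjusted threshold. At the cutoffs of the study 882 of these genes were lower and 789 higher. All siRetSat arrays lay below all siControl arrays in 1871 of them and above in 1502. The number of arrays limits this precision.

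Tars had log2 values of 9.67, 9.85 and 9.84 in siControl and 9.20, 9.33 and 9.41 in siRetSat. The array numbered 1 was the lowest in both groups, and the groups did not overlap. The log2 fold change was -0.47 (95% confidence interval -0.70 to -0.25, adjusted p = 0.0400 from limma), which leaves 72.0% of the control signal. Sars had log2 values of 11.16, 11.21 and 11.23 in siControl and 10.82, 10.75 and 10.82 in siRetSat. Its arrays lay close together within each group and did not overlap between groups. The log2 fold change was -0.40 (95% confidence interval -0.59 to -0.22, adjusted p = 0.0360 from limma), or 75.6% of the control signal. Without both arrays numbered 1 the log2 fold changes of Tars and Sars were -0.475 and -0.435, with an adjusted p of 0.0358 and 0.0454 from limma. When each array was left out in turn, Tars passed in 1 of 6 fits, the one without siControl replicate 1, and Sars in 0. Neither passed without both arrays numbered 2, without both numbered 3, or after centring arrays on their medians, and over 17 alternatives the adjusted p of Tars ran from 0.00166 to 0.573 and that of Sars from 0.00175 to 0.593, with log2 fold changes of -0.53 to -0.42 and -0.44 to -0.38.

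Glycyl-, arginyl- and tyrosyl-tRNA synthetases came next among the cytosolic enzymes, past the cutoffs of the study but not past the adjusted threshold. Gars, whose single gene supplies glycine enzyme to both cytosol and mitochondria, had log2 values of 11.36, 11.32 and 11.29 in siControl and 10.86, 11.01 and 10.96 in siRetSat. The groups lay clearly apart, and limma gave a log2 fold change of -0.38 with an adjusted p of 0.0537. Rars, a member of the multisynthetase complex, had log2 values of 11.03, 11.12 and 11.07 in siControl and 10.77, 10.66 and 10.66 in siRetSat. Here again no value was shared between groups, and the log2 fold change was -0.38 (adjusted p = 0.0532 from limma). Yars had log2 values of 8.59, 8.91 and 8.86 in siControl and 8.45, 8.40 and 8.46 in siRetSat, so that siControl 1 lay closest to the siRetSat arrays. Its log2 fold change was -0.35 (adjusted p = 0.144 from limma). Without both arrays numbered 1, Rars and Yars had log2 fold changes of -0.435 and -0.455 with an adjusted p of 0.0438 and 0.0405 from limma, and Gars -0.32 with 0.103. None of these genes passed without both arrays numbered 2 or without both numbered 3. Over the 17 alternatives the adjusted p ran from 0.00472 to 0.546 for Gars, from 0.00212 to 0.693 for Rars and from 0.00406 to 0.902 for Yars.

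**Figure D1:**
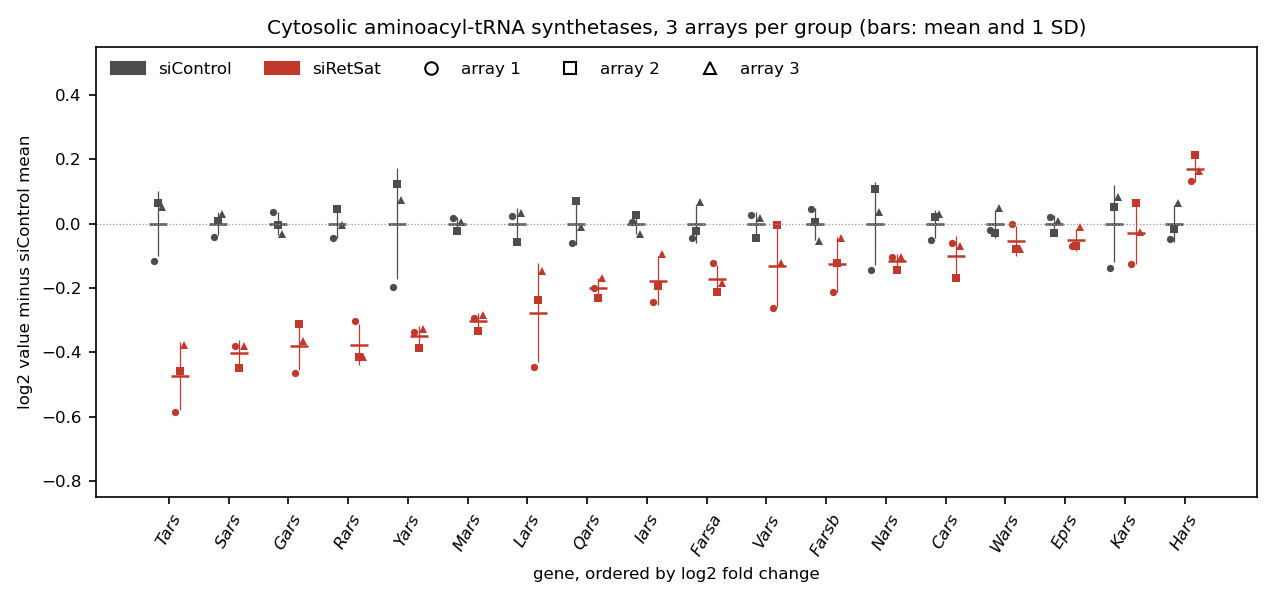
Log2 value of each of 18 cytosolic synthetases on each array minus the mean of the siControl arrays, with siControl in grey, siRetSat in red, 1 marker shape per array number, and lines for the mean and 1 SD of 3 arrays. Genes run from Tars, at -0.47, to Hars, the only cytosolic member with a positive log2 fold change, 0.17.

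Across the cytosolic enzymes the siRetSat values leaned one way. The log2 fold change was below 0 for 17 of 18 genes, with a median of -0.175 and a range from -0.47 to 0.17, whereas over all genes tested the median was 0.00333 and 48.3% lay below 0. No member was dim, and among the 11960 genes that were not dim the median was -0.01, with 51.9% below 0. Averaged over the 18 genes, the siControl arrays lay at -0.04, 0.0167 and 0.0233 and the siRetSat arrays at -0.227, -0.197 and -0.168 on the log2 scale around the siControl mean. The array averages therefore did not overlap. Gene by gene, 11 of 18 lay lower without overlap, beside 10.1% of all genes, 6 overlapped, and Hars lay higher without overlap. Among the genes that were not dim, 1871 of 11960 lay lower without overlap. Without both arrays numbered 1 the median log2 fold change was -0.188. The standard deviation within groups was small for these genes, with a median of 0.0566 log2 units beside 0.139 for all genes.

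Values below 0 were found in both catalytic classes and inside and outside the multisynthetase complex. The classes are unrelated protein folds, and class I enzymes had log2 fold changes below 0 in 9 of 9 genes (median -0.20) and class II in 7 of 8 (median -0.15). Eprs, which joins a glutamate enzyme of class I and a proline enzyme of class II in 1 chain, was counted in neither and had a log2 fold change of -0.05 (95% confidence interval -0.23 to 0.13). The multisynthetase complex holds several cytosolic synthetases on shared scaffold proteins. Of its enzymes 7 of 7 lay below 0 (median -0.20), among them methionyl-tRNA synthetase (Mars) at -0.30 (adjusted p = 0.0911 from limma), leucyl (Lars) at -0.28 and glutaminyl (Qars) at -0.20. Outside the complex 10 of 11 lay below 0 (median -0.13). Of the 3 scaffold genes 0 passed the threshold, the median was 0.04, and Aimp2 and Eef1e1 had log2 fold changes of -0.09 and 0.09.

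The remaining cytosolic genes ran from small negative values to the single positive one. Isoleucyl-tRNA synthetase (Iars) had log2 values of 10.38, 10.40 and 10.34 in siControl and 10.13, 10.18 and 10.28 in siRetSat, which gave a log2 fold change of -0.18, with an adjusted p of 0.407 from limma. The alpha and beta subunits of phenylalanyl-tRNA synthetase, Farsa and Farsb, had log2 fold changes of -0.17 and -0.13. Valyl (Vars), asparaginyl (Nars) and cysteinyl (Cars) enzymes lay at -0.13, -0.12 and -0.10, with every 95% confidence interval reaching across 0. Lysyl-tRNA synthetase (Kars), which like Gars serves both compartments from 1 gene, lay at -0.03 (95% confidence interval -0.26 to 0.20). Tryptophanyl-tRNA synthetase (Wars) is known to be induced by interferon gamma. It lay at -0.05 (95% confidence interval -0.24 to 0.14). In the same arrays 10 of 13 measured interferon response genes rose and 0 fell, beside 1.91% of all genes higher and 1.66% lower. Those that rose included Ifit3 by 4.06, Rsad2 by 2.31, Zbp1 by 2.01 and Oasl2 by 1.90. The list was not divided by type of interferon. Averaged over that list, siControl arrays ranged from -0.0708 to 0.0569 and siRetSat arrays from 1.31 to 1.61. Histidyl-tRNA synthetase (Hars) had log2 values of 8.44, 8.47 and 8.55 in siControl and 8.62, 8.70 and 8.65 in siRetSat. All its siRetSat arrays lay above all its siControl arrays, and limma gave a log2 fold change of 0.17 with an adjusted p of 0.418.

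**Figure D2:**
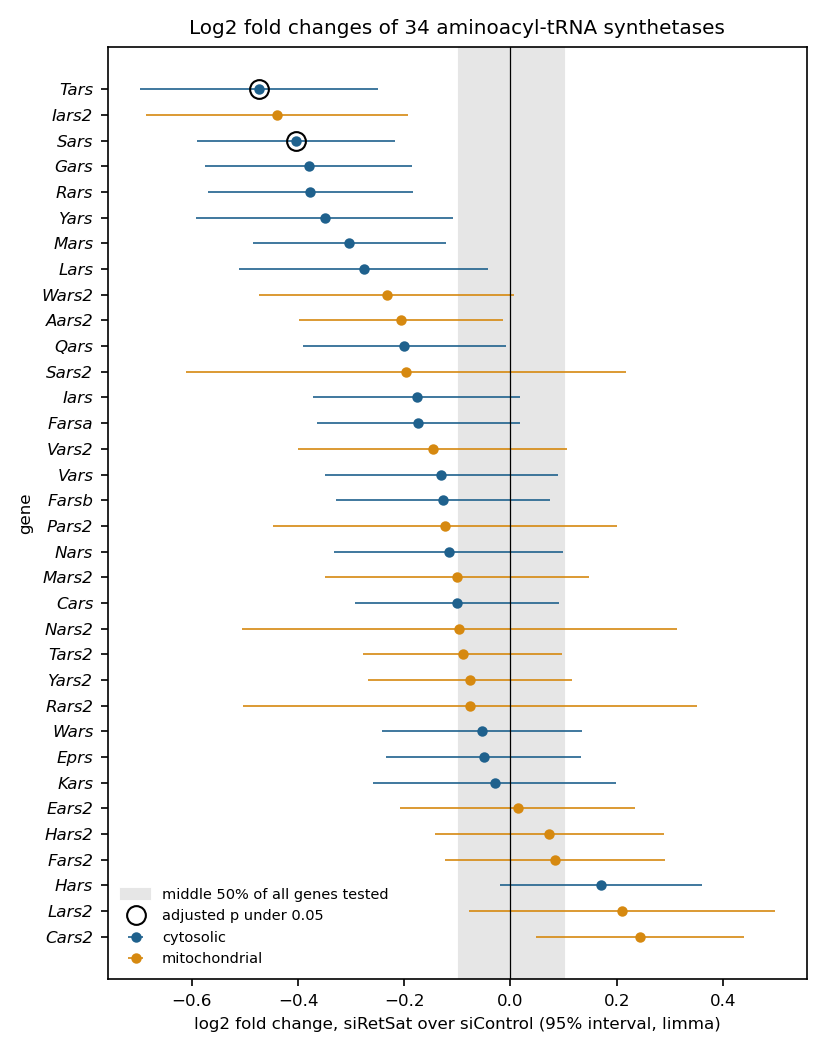
Log2 fold change (siRetSat minus siControl, x axis) of each of 34 synthetases (y axis), with bars for the 95% confidence interval from limma, colours for the compartment, a grey band for the middle 50% of all genes tested (-0.0967 to 0.10), and rings for an adjusted p under 0.05. Only Tars and Sars carry rings, and cytosolic genes fill most of the places at the lower end.

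Of the mitochondrial enzymes, 0 of 16 passed the adjusted threshold, and their values were more mixed. The log2 fold change was below 0 for 11 of 16 genes, with a median of -0.0933 and a range from -0.44 to 0.24. Averaged over these genes the siControl arrays lay at -0.0746, 0.0229 and 0.0517 and the siRetSat arrays at -0.128, -0.0646 and -0.0252. The ranges overlapped, since siControl 1 lay below siRetSat 2 and 3. The mean shift was -0.0727 for mitochondrial and -0.197 for cytosolic genes, a difference of -0.125 that is given without a test. Spread within groups was wider here, with a median standard deviation of 0.125 log2 units beside 0.0566 for the cytosolic genes. Signals also differed between the compartments. The siControl means ran from 4.96 (Pars2) to 8.43 (Tars2) for mitochondrial genes and from 7.41 (Vars) to 11.7 (Nars) for cytosolic genes. The part of signal level in the difference of shifts and in the spread was not tested. Class I and class II mitochondrial enzymes had medians of -0.0767 (6 of 9 below 0) and -0.0967 (5 of 7 below 0).

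Iars2, which charges mitochondrial tRNA with isoleucine, had the lowest log2 fold change among the mitochondrial genes. The siControl arrays had log2 values of 8.20, 8.36 and 8.37 and the siRetSat arrays 7.71, 7.88 and 8.02, with the array numbered 1 lowest in both groups. The groups did not overlap, and the log2 fold change was -0.44 (95% confidence interval -0.69 to -0.19, adjusted p = 0.0717 from limma). It was the only mitochondrial member past the cutoffs of the study, and its adjusted p ran from 0.00361 to 0.684 over the 17 alternatives. The tryptophan and alanine enzymes, Wars2 and Aars2, also lay lower on all siRetSat arrays, at -0.23 and -0.21 (adjusted p = 0.361 and 0.300 from limma). At the other end, the cysteine enzyme Cars2 had log2 values of 5.64, 5.75 and 5.76 in siControl and 5.93, 5.93 and 6.02 in siRetSat. All its siRetSat arrays lay higher, with a log2 fold change of 0.24 (95% confidence interval 0.05 to 0.44, adjusted p = 0.216 from limma). The leucine enzyme Lars2 lay at 0.21, but siRetSat 1, at 5.87, lay within the siControl range of 5.59 to 5.95.

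The other mitochondrial genes overlapped between groups. Phenylalanine (Fars2), histidine (Hars2) and glutamate (Ears2) enzymes lay at 0.08, 0.07 and 0.01. Threonine (Tars2), tyrosine (Yars2) and methionine (Mars2) enzymes lay at -0.09, -0.08 and -0.10, and those for valine (Vars2) and proline (Pars2) at -0.15 and -0.12. Serine (Sars2), asparagine (Nars2) and arginine (Rars2) enzymes lay at -0.20, -0.10 and -0.08 with wide intervals, and in each of them 1 array lay far below its group. In Sars2 and Nars2 this was siControl 1, at 5.78 and 6.77 beside 6.36 and 7.29 on siControl 2. In Rars2 it was siRetSat 1, at 6.24 beside 6.88 on siRetSat 2. Without both arrays numbered 1 the log2 fold changes of Sars2, Nars2 and Rars2 were -0.32, -0.225 and 0.02.

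**Figure D3:**
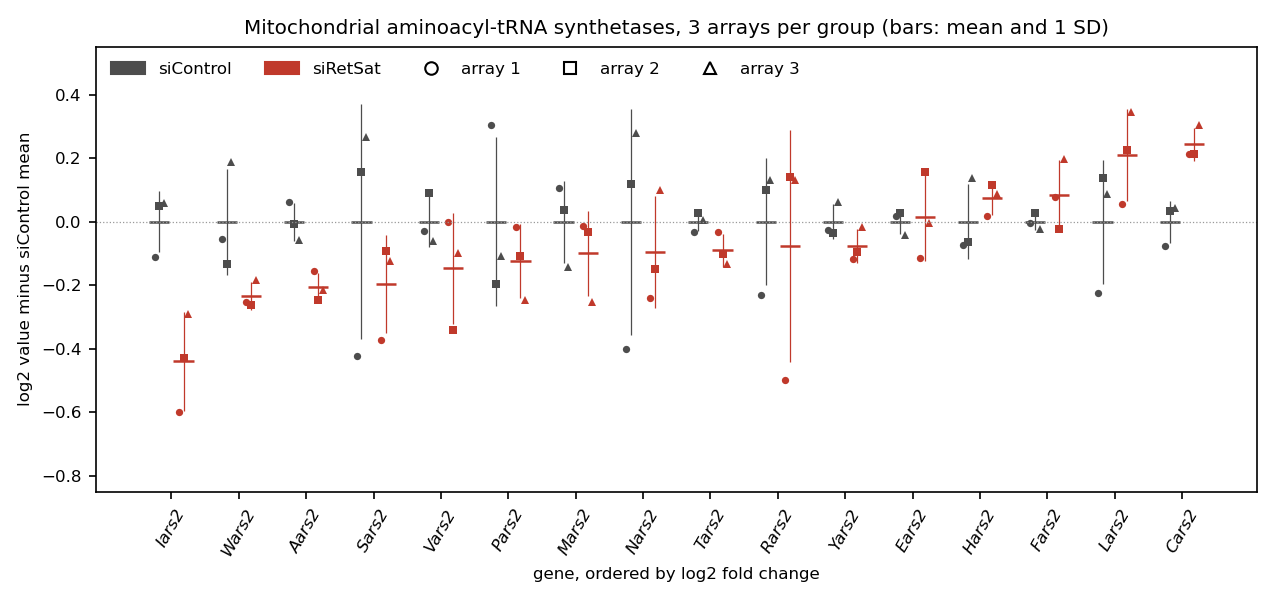
Log2 value of each of 16 mitochondrial synthetases on each array minus the mean of the siControl arrays, with siControl in grey, siRetSat in red, 1 marker shape per array number, and lines for the mean and 1 SD of 3 arrays. Iars2, at -0.44, and Cars2, at 0.24, stand at the ends with no overlap between groups, while Sars2, Nars2 and Rars2 spread widely.

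Enzymes that serve the same amino acid in both compartments were set against each other in 16 pairs. Eprs and Fars2 each enter 2 pairs. The cytosolic enzyme had the more negative log2 fold change in 11 pairs and the mitochondrial one in 5, with a median difference of -0.205. The log2 ratio of cytosolic to mitochondrial signal was taken on each array, and only its shift between groups is read, since signals of different probe sets cannot be compared. In 6 of 16 pairs the ratio was lower on all siRetSat arrays. No share over other gene pairs was computed, so whether such counts are unusual cannot be said. The widest gap was in the leucine pair, where Lars lay at -0.28 and Lars2 at 0.21, a difference of -0.49. The threonine pair followed at -0.38, the cysteine pair at -0.34, the tyrosine pair at -0.27, and the pairs of Farsa and Farsb with Fars2 at -0.26 and -0.21.

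In the isoleucine and histidine pairs the ratio was instead higher on all siRetSat arrays, by 0.26 and 0.10. For isoleucine the log2 fold changes were -0.18 for Iars and -0.44 for Iars2, and for histidine 0.17 for Hars and 0.07 for Hars2. In all 8 of these pairs the two-sided exact permutation test gave p = 0.1, the smallest value that 3 arrays against 3 allow, and 0.2 after Benjamini-Hochberg adjustment over the 16 pairs, so no pair could pass 0.05. The serine pair overlapped (difference -0.21, exact p = 0.5), although Sars itself passed the threshold, and the arginine pair did too (difference -0.30, exact p = 0.4), with Rars2 spread widely.

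**Figure D4:**
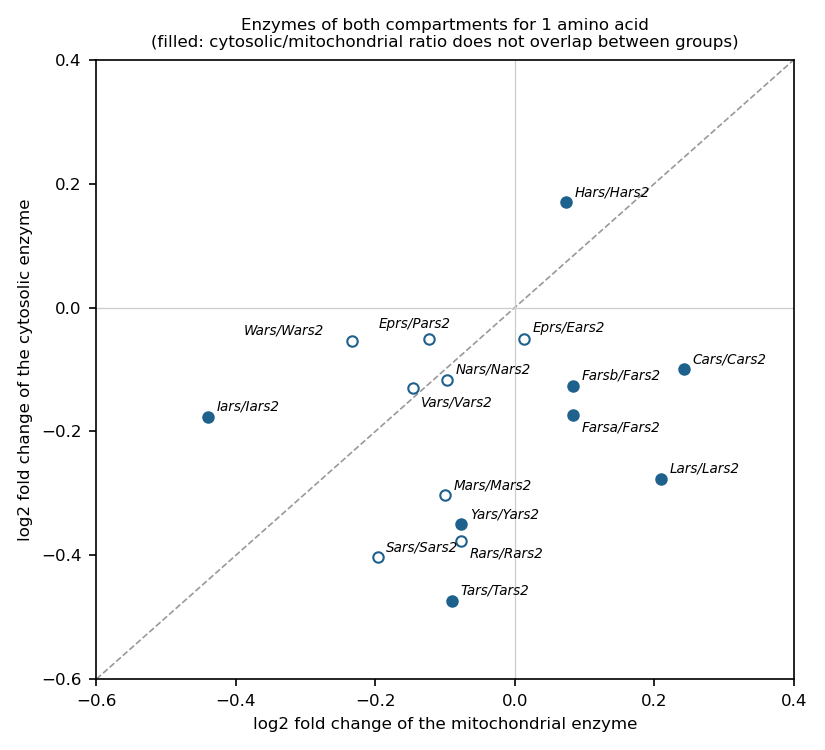
Log2 fold change of the cytosolic enzyme on the y axis against that of the mitochondrial enzyme for the same amino acid on the x axis, 16 pairs, with the line of equal change dashed. Points below the line (11 pairs) have the more negative cytosolic value, and the 8 filled points are pairs whose cytosolic to mitochondrial ratio does not overlap between the groups.

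Few genes in other parts of the translation apparatus passed the threshold, at which 1.66% of all genes were lower and 1.91% higher. Of 23 measured genes for cytosolic initiation factors and their regulators, 0 rose and 0 fell, with a median of -0.0567. The 9 measured genes for elongation and termination factors and their modification had a median of -0.04, and again 0 rose and 0 fell. Eif2s2, the beta subunit of eIF2, lay at -0.43 (adjusted p = 0.118 from limma), and the termination factor Etf1 at -0.56 (adjusted p = 0.0735 from limma). The elongation factor subunit Eef1b2 lay the other way, at 0.39 (adjusted p = 0.0662 from limma), with all siRetSat arrays above all siControl arrays. Eif3b, a subunit of the initiation factor eIF3, lay at -0.17. Among 19 genes for tRNA processing and transport 0 passed, with a median of -0.0633, and the RNase P subunit genes Pop4 and Trmt10c lay at -0.44 and -0.49 (adjusted p = 0.0646 and 0.0740 from limma). For mitochondrial translation, 0 of 11 factors passed (median -0.103), with Gfm2 at -0.64 (adjusted p = 0.157 from limma) and the ribosome recycling factor gene Mrrf at -0.24. Of the genes that finish mitochondrial aminoacyl-tRNAs 0 of 4 passed (median 0.06), with the formyltransferase gene Mtfmt at 0.19 and the amidotransferase subunit gene Gatc at 0.16. Of 77 mitochondrial ribosomal protein genes 0 rose and 3 fell, Mrps15 by 0.78, Mrps26 by 0.69 and Mrpl10 by 0.50, but the median was 0.05. Among 5 synthetase-like and tRNA editing genes 0 passed, with a median of -0.09, and Ptrhd1 and Prorsd1 lay at -0.23 and -0.09. The cutoffs of the study, which 4.58% of all genes passed lower and 4.47% higher, gave calls in several of these lists. Lower were Eif2s2 for initiation, Etf1 for termination, 3 of 19 genes for tRNA processing and transport, Gfm2 and 5 of 77 mitochondrial ribosomal protein genes. Pop4 and Trmt10c were among the 3. Eef1b2 was the only gene higher in these lists.

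Genes of the ATF4 pathway were described next, because ATF4 is known to act on many cytosolic synthetase genes. Atf4 mRNA had log2 values of 9.66, 9.80 and 9.87 in siControl and 9.44, 9.48 and 9.58 in siRetSat. The groups did not overlap, but the log2 fold change of -0.28 did not pass (adjusted p = 0.199 from limma), and ATF4 is controlled largely by translation, which arrays do not measure. Of the eIF2 kinases, Eif2ak3 (PERK, the sensor of endoplasmic reticulum stress) fell by 0.51 (adjusted p = 0.0319 from limma), a call kept in 1 of 6 fits without a single array. Eif2ak4 (GCN2, the sensor of uncharged tRNA), Eif2ak1 (HRI) and Eif2ak2 (PKR) had log2 fold changes of 0.05, -0.17 and 0.08. In all, 1 of 15 kinases and ATF4 regulators fell and 0 rose, beside 1.66% of all genes lower and 1.91% higher. Averaged over the list, siControl arrays ranged from -0.0258 to 0.0262 and siRetSat arrays from -0.162 to -0.0904.

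Among 26 measured ATF4 targets of the amino acid response other than synthetases, the median was -0.275, and 5 lay above 0, up to 0.0933. At the adjusted threshold 7 fell and 0 rose, beside 1.66% of all genes lower and 1.91% higher. Those that fell included Asns (asparagine synthetase), at -0.46 (adjusted p = 0.0210 from limma). Mthfd2, an enzyme of mitochondrial folate metabolism, lay at -0.49 (adjusted p = 0.0209 from limma). Cth (cystathionine gamma-lyase) and Aldh18a1, which begins proline synthesis, lay at -0.53 and -0.48 (adjusted p = 0.0150 and 0.0300 from limma). With each array left out in turn, Cth passed in 2 of 6 fits, Asns and Mthfd2 in 1 each and Aldh18a1 in 0. Without both arrays numbered 1, Aldh18a1 lay at -0.405 and no longer passed (adjusted p = 0.0707 from limma), while the other 3 did. Averaged over the list, siRetSat arrays lay at -0.237, -0.298 and -0.27 and siControl arrays at 0.0201, -0.0137 and -0.00641. These averages did not overlap between siControl and siRetSat, nor did those of the kinases and ATF4 regulators or of the hepatocyte markers.

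**Figure D5:**
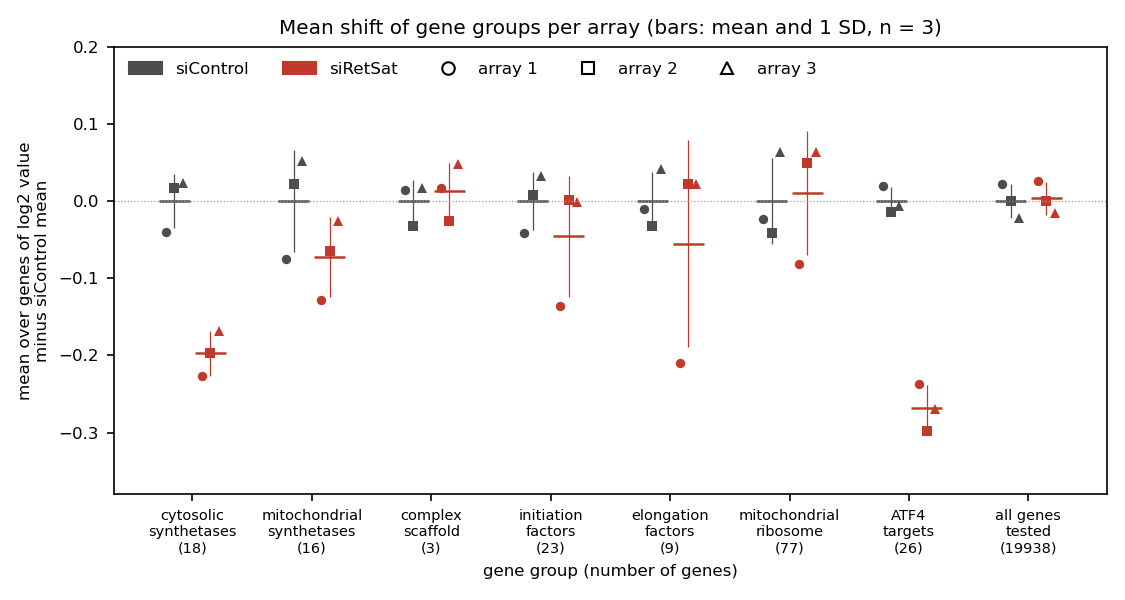
Mean over the genes of each group of the log2 value minus the siControl mean, on the y axis, for 8 gene groups on the x axis, with 1 marker per array and lines for the mean and 1 SD of 3 arrays. Cytosolic synthetases (-0.197) and ATF4 targets (-0.268) are the groups drawn here whose siRetSat arrays all lie below the siControl arrays, while all genes tested stay near 0.

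Promoter windows from RefSeq, GRCm38.p6, were then searched for letters of elements known from these pathways. Each window runs from 250 bases before the transcription start to 50 bases from it, on the strand of the gene. A window was at hand for 25 measured members, 11 cytosolic and 14 mitochondrial, and not for Cars, Hars, Lars, Nars, Rars, Vars, Wars, Hars2 and Pars2. The C/EBP-ATF response element (CARE) was searched as TGATGNAA on both strands. It occurred in 4 of 11 cytosolic windows (36.4%), those of Tars, Gars, Yars and Iars, in 0 of 14 mitochondrial windows, and in 3.97% of all 32851 windows. Of the ATF4 target list, 7 of 22 genes with a window held it. The stretches below, from 100 bases before the start to 30 from it, show these 4 matches in capitals, and Sars, which fell without one.
Tars (chr15:11399629-11399758, minus strand): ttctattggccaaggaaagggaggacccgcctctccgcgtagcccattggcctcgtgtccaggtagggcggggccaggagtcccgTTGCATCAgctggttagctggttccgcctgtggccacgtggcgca
Gars (chr6:55037901-55038030, plus strand): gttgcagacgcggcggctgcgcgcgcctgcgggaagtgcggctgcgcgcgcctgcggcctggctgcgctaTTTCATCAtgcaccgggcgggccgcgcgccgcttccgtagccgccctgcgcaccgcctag
Yars (chr4:129189803-129189932, plus strand): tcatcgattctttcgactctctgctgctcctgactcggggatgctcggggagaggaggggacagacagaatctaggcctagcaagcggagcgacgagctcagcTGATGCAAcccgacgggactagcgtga
Iars (chr13:49682030-49682159, plus strand): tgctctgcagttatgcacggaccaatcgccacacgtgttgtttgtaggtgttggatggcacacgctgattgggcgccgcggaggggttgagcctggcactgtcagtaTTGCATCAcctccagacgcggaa
Sars (chr3:108445230-108445359, minus strand): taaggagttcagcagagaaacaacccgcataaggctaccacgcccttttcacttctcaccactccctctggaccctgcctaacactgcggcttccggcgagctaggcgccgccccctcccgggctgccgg

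The match begins at base -15 in Tars, -30 in Gars, 4 in Yars and 8 in Iars, counting the start as base 1. It reads TTGCATCA in Tars and Iars, TTTCATCA in Gars, and TGATGCAA in Yars, which is the Tars sequence on the other strand. The median log2 fold change was -0.365 for the 4 cytosolic genes with a match and -0.173 for the 7 without, among them Sars at -0.40 and Mars at -0.30. The windows of Iars2 and Cars2, at the ends of the mitochondrial range, held no match. A match describes letters in the window only.

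Letters of other elements were searched in the same windows, again on both strands. The core of the interferon-stimulated response element, GAAA, any 2 letters and GAAA, occurred in 1 cytosolic window, that of Qars, in 0 mitochondrial windows and in 3.44% of all windows. The E-box, CACGTG, which is bound by many factors and forms the unit of the element that the glucose-responsive factor ChREBP binds, occurred in 3 cytosolic windows, those of Tars, Iars and Farsb, in 1 mitochondrial window, that of Ears2, and in 7.15% of all windows. The carbohydrate response element, searched strictly as a pair of E-boxes with 5 letters between them, occurred in 0 windows of any gene.

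Markers of other liver cells moved in part with the groups. Calls here stand beside 1.66% of all genes lower and 1.91% higher at the adjusted threshold. Of 10 macrophage markers 1 rose, Cd14 by 0.59, and 0 fell, with list averages from -0.0173 to 0.0347 in siControl and from 0.101 to 0.238 in siRetSat, and 6 of the 10 were dim. Of 10 stellate cell and fibroblast markers 1 fell, Acta2 by 2.40, and 4 were dim, with list averages from -0.104 to 0.088 in siControl and from -0.305 to 0.131 in siRetSat. Of 5 bile duct markers 1 rose, Sox9 by 0.45, with list averages from -0.028 to 0.026 in siControl and from -0.008 to 0.146 in siRetSat. Among 7 endothelial and 6 lymphocyte markers 0 passed the threshold, with Pecam1 and Stab2 at -0.20 and 0.20 and Cd3e and Ms4a1 at 0.14 and -0.07. Dim were 1 of the 7 endothelial and 5 of the 6 lymphocyte markers. The 3 hepatocyte markers that fell were Cps1, of the urea cycle, by 0.82, Tat, of tyrosine breakdown, by 0.72, and Fgb, a fibrinogen chain, by 0.42. With each array left out in turn, Cps1 and Cd14 passed in 2 of 6 fits, and Tat, Fgb, Sox9 and the ribosomal gene Mrpl10 in 1 each, while Acta2 passed in all 6. The part of these shifts, and of the interferon response, in the values of the synthetases was not tested.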

How the data were processed

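Arrays (Affymetrix Mouse Gene 1.0 ST) were hybridised with total RNA of 6 hepatocyte transfections, 3 per group. The authors deposited log2 intensities for 35556 probe sets, which the submitters' processing notes credit to RMA (background correction, quantile normalization and summary of probes) and Partek 6.6. The medians of the deposited arrays still ran from 4.29 to 4.50. The mean shift of the cytosolic members was -0.177 after renewed quantile normalization and -0.214 after median centring, beside -0.197 in the main fit. Groups and replicate numbers were taken from the sample labels. The labels name Dharmacon as the siRNA supplier, while the methods of the study name another supplier and another age of the mice. Probe sets were named through the platform annotation, in which Mars appears as Mars1, and updated by Entrez identifier. The 21789 probe sets with 1 symbol gave 19938 genes, each represented by its brightest probe set.

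Groups were compared by a linear model without covariates in limma (version 3.58.1, run in R 4.3.3), with moderated variances. P-values were adjusted by the Benjamini-Hochberg procedure over the 19938 genes. The step was tested on simulated data. Ratios of paired enzymes were compared by two-sided exact permutation. Promoter windows came from RefSeq, GRCm38.p6. Tables and plots used Python 3.11.15, pandas 2.3.3 and matplotlib 3.10.9. The members and the other gene lists were chosen with earlier results of these data known. Every member is named, and of each other list the members past the threshold, up to 4, or otherwise the 2 with the smallest p. Atf4, the eIF2 kinases and Retsat are named whatever their values, and Alb was added for the check of cell type. Alternatives were the methods' t-test, a variance trend, a replicate block, a filter on dim genes, renewed quantile normalization, median centring, averaging over the probe sets of a gene, weighted arrays, and the omission of each array or of both arrays of 1 number. A fit over all probe sets was added after seeing the data. For arrays, their number limits the precision.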

Additional observations from a re-analysis of the deposited data

How the results depend on the processing

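The mean shifts of both compartments and the difference between them changed by less than their spread under the alternatives run for them. These left out the methods' t-test, the variance trend, the replicate block and the array weights. The count at the cutoffs of the study changed by less than 1.5 times under all alternatives. No member passed the adjusted threshold on the higher side under any of them. The mean shift of the cytosolic members ran from -0.217 to -0.183 when each array was left out in turn, and that of the mitochondrial members from -0.11 to -0.0449. The count of members lower at an adjusted p under 0.05, which was 2, was less steady. It was 6 with a variance trend, 6 without dim genes, 4 after renewed quantile normalization, 0 after median centring, and 10 with array weights, which gave both arrays numbered 1 the lowest weights (0.417 and 0.317). It was 0 to 1 when each array was left out in turn, and 4, 0 and 0 without both arrays numbered 1, 2 and 3. The methods' t-test also gave 2, Sars and Mars, and lost Tars (adjusted p = 0.124). The cause of these shifts was not tested.

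With the replicate number as a replicate block, 5 members were lower, since Gars, Rars and Iars2 joined Tars and Sars. The numbers were not taken as pairing the samples, because same-numbered arrays correlated at 0.547, 0.0398 and 0.541 in their deviations from the group means, and siControl 2 correlated best with siRetSat 3. These correlations cannot decide the matter, since on the component with 61.5% of the variance within groups the arrays numbered 2 deviated least. There the order was the same in both groups, at -19.0, 3.66 and 15.4 in siControl and -23.6, 7.26 and 16.4 in siRetSat. The block changed no other call among the members.

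Of 578 comparisons of a member with its value under an alternative (34 members, 17 alternatives), 523 kept direction and side of the threshold, 24 gained a call, 18 lost one and 13 changed sign. The changes of sign concern 5 genes of small change. Kars was 0.01 without both arrays numbered 3 and ran from -0.0983 to 0.0183 when each array was left out in turn. Ears2 was -0.0233 after quantile normalization, -0.00333 with median centring and -0.045 without both arrays numbered 2, and ran from -0.0583 to 0.0767 when each array was left out in turn. Rars2 was 0.0268 with array weights and 0.02 without both arrays numbered 1, and ran from -0.192 to 0.135. Nars2 ran from -0.297 to 0.0433 and Pars2 from -0.222 to 0.0283 in the same fits.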

Other observations

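The probe set that names both Aars and Exosc6 could not be given to either gene. The siControl arrays gave log2 values of 9.02, 9.05 and 9.01 and the siRetSat arrays 8.77, 8.79 and 8.72, without overlap. In a fit over all 35556 probe sets, added after seeing the data, its log2 fold change was -0.27 with an adjusted p of 0.249 from limma.

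Iars was the only member with more than 1 probe set. In the same fit its probe sets gave log2 fold changes of -0.18 and -0.18, with an adjusted p of 0.542 for the brighter and 0.572 for the other, and so the choice of probe set did not move the value.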
